A study of Homo sapiens with 14 samples.

Results

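The HOX cluster genes were read across 7 human prostate cancer cell lines. Members were the genes named HOXA, HOXB, HOXC or HOXD with a number that had a probe set (the group of probes that reports a transcript) listing no other symbol. This gave 27 members among the 18372 genes measured, of 39 HOX genes in RefSeq. They comprised HOXA2 alone of the 11 HOXA genes, all 10 HOXB genes, 7 of the 9 HOXC genes and all 9 HOXD genes. The other 12 were not analysed here as single genes, and 1 probe set listing HOXC6 and HOXC4 together read between 4.82 and 4.99 on the log2 scale in every line. Each member had 1 probe set.

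The study asked how expression differs between prostate cancer lines that form bone metastases and lines that do not, with 2 arrays a line made from separate culture passages. The lines labelled bone metastatic were PC3-ML, its single-cell derivatives PC3-ML (Clone 1) and PC3-ML (Clone 3), here Clone 1 and Clone 3, and PC3-N(PDGFRα). The lines labelled non-bone metastatic were DU-145 (PDGFRα), PC3-N and DU-145. PC3 and DU-145 are established lines derived from metastases of human prostate carcinoma. The lines marked (PDGFRα) carry more of the growth factor receptor PDGFRα by overexpression. The promoter that drives the receptor is not given in the sources used here, and each line was set against its unmodified parent, with no control line handled alike. Each clone descends from a single cell, so a clone's difference from PC3-ML stands for the progeny of 1 cell. All lines grew in DMEM with serum and gentamicin. The p-values for pairs of lines measure differences against the spread between passages of a line, not between independently derived lines.

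HOX genes encode homeodomain transcription factors that give cells positional identity along the body axis. They lie in 4 clusters on different chromosomes, and their order within a cluster follows the order in which they act along the axis. Genes at the high-numbered end act in the most posterior structures, and HOXB13 is a lineage factor of the prostate that binds the androgen receptor. HOX proteins bind DNA with TALE homeodomain partners of the PBX and MEIS families. Polycomb complexes keep the clusters silent, trithorax complexes keep them active, and retinoic acid induces HOX genes in the embryo.

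Promoters are shown for the genes of this account that RefSeq's table lists (build GRCh38.p14, 300 bases, 250 before to 50 after the start), with CG dinucleotides in capitals. PRAC1 and HOXB-AS3 are shown because they lie in the HOXB cluster beside genes that differed between lines, and HOXD1 because it was the only called member with an entry. PRAC1 is a small protein-coding gene between HOXB9 and HOXB13, and HOXB-AS3 is an antisense RNA whose span overlaps those of HOXB5 and HOXB6.
PRAC1 (chr17:48722469-48722768, minus strand): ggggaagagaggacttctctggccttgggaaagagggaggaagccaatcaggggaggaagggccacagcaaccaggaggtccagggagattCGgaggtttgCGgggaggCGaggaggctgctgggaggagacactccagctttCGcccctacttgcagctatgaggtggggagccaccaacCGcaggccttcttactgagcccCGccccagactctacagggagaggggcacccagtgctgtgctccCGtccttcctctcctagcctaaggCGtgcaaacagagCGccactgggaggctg
HOXB-AS3 (chr17:48595708-48596007, plus strand): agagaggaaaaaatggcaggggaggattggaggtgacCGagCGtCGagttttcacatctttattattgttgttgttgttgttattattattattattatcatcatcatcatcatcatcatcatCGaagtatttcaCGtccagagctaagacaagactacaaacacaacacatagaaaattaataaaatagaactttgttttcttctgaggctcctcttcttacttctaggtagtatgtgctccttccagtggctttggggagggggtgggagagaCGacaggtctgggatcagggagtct
HOXD1 (chr2:176188418-176188717, plus strand): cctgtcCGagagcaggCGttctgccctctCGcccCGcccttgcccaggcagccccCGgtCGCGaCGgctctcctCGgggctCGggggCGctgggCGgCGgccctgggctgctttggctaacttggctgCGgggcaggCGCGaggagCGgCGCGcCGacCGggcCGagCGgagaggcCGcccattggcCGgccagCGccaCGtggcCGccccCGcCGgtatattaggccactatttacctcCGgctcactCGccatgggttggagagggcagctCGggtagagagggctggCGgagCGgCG
The PRAC1 window held 9 CG, and 58.4% of the 35116 promoters listed held as many or more. The HOXB-AS3 window held 6 (66.3% held as many or more) and the HOXD1 window 36 (12.7%). Of the 27 members, 11 had an entry, with 4 to 36 CG and a median of 23, against a median of 14 for all promoters. The motif GGGCGG, searched on both strands, was in 5 of the 11 and in 45% of all promoters, and the HOXD1 window held 4 copies. TATAAA was in 1 of the 11 and in 11.5% of all, and TGATNNAT, a form of the PBX-HOX site, was in 3 of the 11 (HOXA2, HOXB1 and HOXD11) and in 7.4% of all. A match describes these letters in this window and no more.

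All values below are log2 of the deposited intensity unless an intensity is named. Array medians lay between 4.9 and 4.98 and upper quartiles between 5.88 and 6.05, so a line mean of at least 6 (an intensity of 64) was called clear signal. The passages of a line correlated over all genes at r = 0.9891 to 0.9959, and arrays of PC3 origin correlated with arrays of DU-145 origin at 0.9262 to 0.9483. PC3-N replicate 2 lay closer to PC3-ML replicate 2 (0.9935) than to its own pair (0.9925), and the second DU-145 array correlated more with DU-145 (PDGFRα) replicate 1 (0.9905) than with the first DU-145 array (0.9891). All 5 epithelial markers had clear signal in at least 1 line and 3 in all lines, led by EPCAM at up to 10.67. CDH1 had clear signal in DU-145 alone (7.16) and averaged 4.70 to 4.98 in the PC3 lines. KRT18 averaged 5.76 in PC3-ML. The androgen receptor targets KLK3 and KLK2, the prostate markers measured, stayed at 4.68 to 5.01, without clear signal. The 3 leukocyte markers lay at 4.31 to 4.87, the 4 fibroblast markers at 4.31 to 5.68, and of 3 endothelial markers PECAM1 reached 6.49. PDGFRA averaged 9.70 in PC3-N(PDGFRα), where the parent PC3-N had 6.73. In DU-145 (PDGFRα) it averaged 6.77, where the parent DU-145 had 4.75, and both differences were called.

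Clear signal among the members was found in the HOXB cluster. HOXB6, HOXB7, HOXB9 and HOXB13 were the 4 members (14.8%) with clear signal in at least 1 line, against 36.4% of all genes. The highest line mean among the other 23 members was 5.61. The span of line means had a median of 0.34 over members and 0.31 over all genes, and 5 members (18.5%) spanned at least 1 log2 unit, against 11.8% of all genes. Those 5 were HOXB6, HOXB7, HOXB9, HOXB13 and HOXC9. Near the array floor intensities can be compressed, which was not tested. Differences of dim members, or against lines where a member is dim, may then be low estimates.

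**Figure D1:**
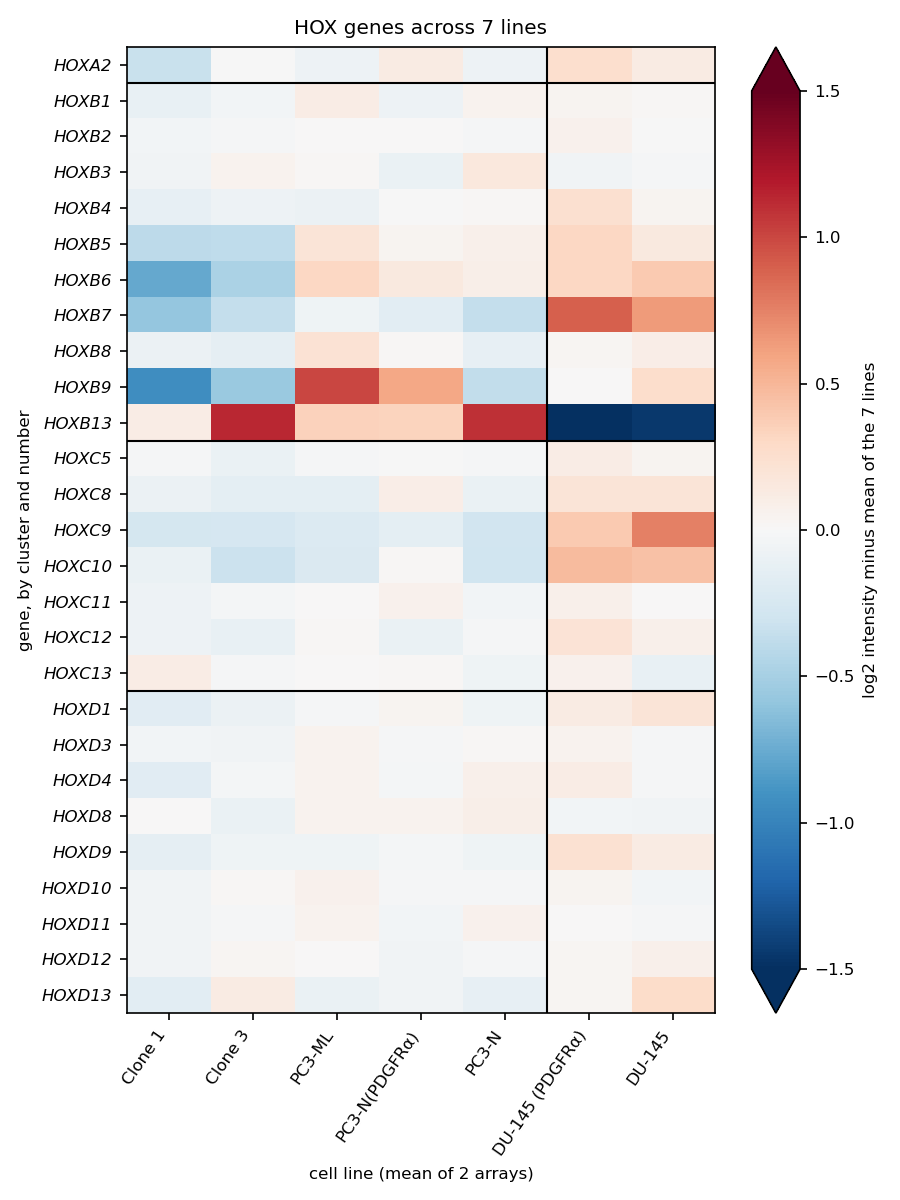
Rows are the 27 HOX genes by cluster and number, columns the 7 cell lines with the PC3 lines left of the DU-145 lines, and colour the line mean of log2 intensity minus that gene's mean over the 7 lines. HOXB13 and HOXB9 show the widest spans, 2.70 and 1.94, and the HOXD genes span at most 0.43.

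HOXB9, a posterior homeodomain factor, was highest in PC3-ML and lowest in the clones derived from it. Its values were 7.12 and 6.91 on the PC3-ML arrays, 6.68 and 6.51 in PC3-N(PDGFRα), 5.44 and 5.48 in Clone 3, 5.13 and 5.02 in Clone 1 and 5.51 and 5.77 in PC3-N. In the DU-145 lines it read 6.01 and 6.03 with PDGFRα and 6.39 and 6.16 without. The PC3-ML arrays were the highest of all 14 and the Clone 1 arrays the lowest. As intensity, HOXB9 averaged 129.6 ± 13.8 in PC3-ML against 50.1 ± 6.35 in PC3-N (SD, n = 2 each). HOXB9 was higher in PC3-ML than in PC3-N by 1.37 (SE 0.11, 95% interval 1.12 to 1.62, limma adjusted p = 0.00069), a 2.59-fold difference. It was the only member called there (1 of 27), where 0.348% of all genes were called. In such bulk samples, fewer cells with the transcript and less of it per cell cannot be told apart.

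PC3-N(PDGFRα), the PC3-N line given the receptor, also had more HOXB9 than PC3-N, with array values that did not overlap. The difference was 0.95 (SE 0.11, limma adjusted p = 0.0036, 1.93-fold), and HOXB9 was again the only member called, against 2.2% of all genes. Both comparisons use the same PC3-N arrays. HOXB13 differed in the other direction without passing the test, at -0.75 (SE 0.26, adjusted p = 0.32) for PC3-ML and -0.76 (SE 0.26, adjusted p = 0.2) for PC3-N(PDGFRα), both against PC3-N. The PC3-N arrays of HOXB13 lay apart, at 8.02 and 7.24. Without PC3-N replicate 1 the differences were -0.36 for PC3-ML and -0.37 for PC3-N(PDGFRα), and without PC3-N replicate 2 they were -1.14 and -1.15, with no call in any of these limma fits.

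In DU-145 (PDGFRα) against DU-145, 0 members passed the limma test, where 0.31% of all genes did, and 3 members had an unadjusted p under 0.05, as had 13% of all genes. HOXB9 differed by -0.26 (SE 0.11, 95% interval -0.50 to -0.01, adjusted p = 0.37). The difference in HOXB9 between a PDGFRα line and its parent, 0.95 in PC3-N and -0.26 in DU-145, is called the PDGFRα effect below. Without a control line handled alike, the receptor and the making of the line cannot be told apart in it. The value in PC3-N exceeded that in DU-145 by 1.21 (SE 0.16, limma adjusted p = 0.014). This was again 1 of 27 members called, against 0.533% of all genes. Leaving out PC3-N(PDGFRα) replicate 1 or DU-145 (PDGFRα) replicate 2 ended that call, with adjusted p of up to 0.058.

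Ordered by level, HOXB9 ran PC3-ML, PC3-N(PDGFRα), DU-145, DU-145 (PDGFRα), PC3-N, Clone 3 and Clone 1. Of the steps between neighbours in that order, only DU-145 (PDGFRα) over PC3-N passed the test (0.38, SE 0.11, adjusted p = 0.028). The other steps ran between 0.18 and 0.42 with adjusted p of 0.058 to 0.45.

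**Figure D2:**
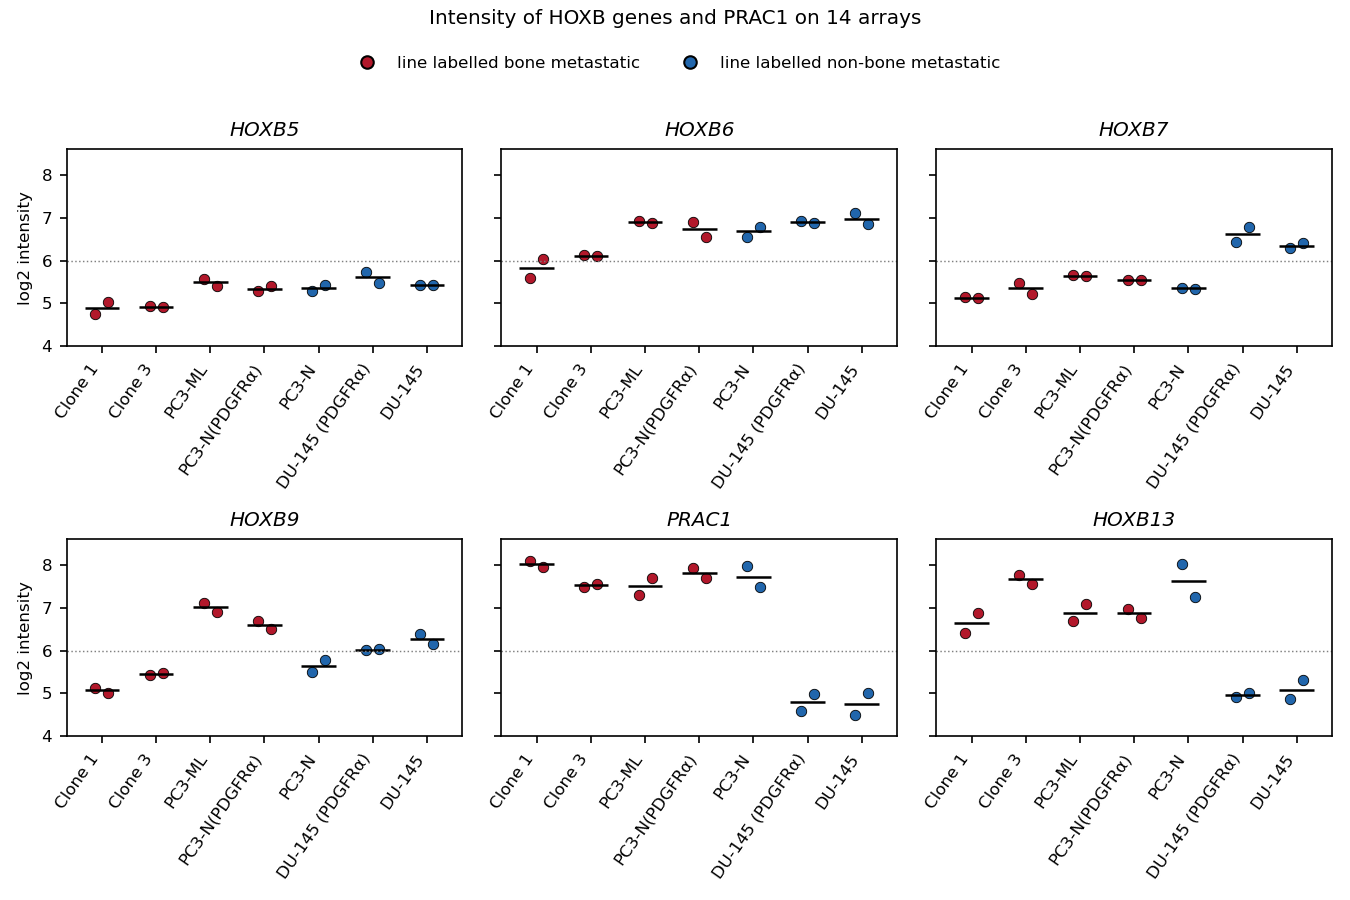
Log2 intensity (vertical axis) of HOXB5, HOXB6, HOXB7, HOXB9, PRAC1 and HOXB13 by cell line, with a point for each array, a bar at the line mean and a dotted line at 6. HOXB9 stands highest in PC3-ML (7.12 and 6.91) and lowest in Clone 1 (5.13 and 5.02), while HOXB13 and PRAC1 are low in both DU-145 lines.

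Both single-cell clones had less of several neighbouring HOXB genes than their parent PC3-ML. In Clone 1, HOXB5, HOXB6, HOXB7 and HOXB9 were lower and 0 members were higher, so 4 of 27 were called, against 4.77% of all genes called lower and 13.8% in either direction. In Clone 3, HOXB5, HOXB6 and HOXB9 were lower and 0 members were higher, 3 of 27, against 2.9% of all genes called lower and 8.1% in either direction. With the filter on dim genes or with an intensity trend, HOXB13 was also called in Clone 3, as higher. Both comparisons use the same PC3-ML arrays. Among the markers, EPCAM, KRT8 and KRT18 (3 of 5 epithelial genes) were called higher in Clone 1 and 0 of 5 in Clone 3. PDGFRA averaged 4.84 in Clone 1 against 6.99 in PC3-ML, a called difference. The part of these in the HOXB differences was not tested.

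HOXB9 was lower in Clone 1 than in PC3-ML (log2 difference -1.94, SE 0.11, adjusted p = 2.5e-05), at 0.261 of the PC3-ML level. It was also lower in Clone 3 (-1.55, SE 0.11, adjusted p = 9e-05), at 0.341 of that level. As intensity it averaged 33.79 ± 1.82 in Clone 1 and 44.04 ± 1.05 in Clone 3, against 129.6 ± 13.8 in PC3-ML (SD, n = 2 each). No clone array came near a PC3-ML array. Clone 1 and Clone 3 differed by -0.38 in HOXB9 (SE 0.11, adjusted p = 0.058).

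HOXB6, a neighbour of HOXB5 active at trunk level in the embryo, read 5.60 and 6.03 in Clone 1 and 6.12 and 6.10 in Clone 3, against 6.93 and 6.87 in PC3-ML. The log2 difference was -1.08 in Clone 1 (SE 0.15, adjusted p = 0.0015) and -0.79 in Clone 3 (SE 0.15, adjusted p = 0.013). In the remaining lines HOXB6 read 6.90 and 6.56 in PC3-N(PDGFRα), 6.93 and 6.87 in DU-145 (PDGFRα), 6.56 and 6.79 in PC3-N and 7.11 and 6.85 in DU-145. All clone arrays thus lay below every array of every other line, while no step between neighbours in the order of lines passed the test.

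HOXB5 read 4.76 and 5.04 in Clone 1 and 4.93 and 4.91 in Clone 3, against 5.58 and 5.41 in PC3-ML, all below the level of clear signal. The log2 difference was -0.59 in Clone 1 (SE 0.11, adjusted p = 0.0061) and -0.57 in Clone 3 (SE 0.11, adjusted p = 0.013). In the other lines HOXB5 read 5.29 and 5.40 in PC3-N(PDGFRα), 5.73 and 5.48 in DU-145 (PDGFRα), 5.30 and 5.44 in PC3-N and 5.44 and 5.43 in DU-145. No array of another line was as low as those of the clones.

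HOXB7 was lower in Clone 1 (-0.52, SE 0.11, adjusted p = 0.013), with arrays at 5.14 and 5.12 against 5.67 and 5.63 in PC3-ML. In Clone 3 it read 5.48 and 5.21, and its difference of -0.30 did not pass the test (SE 0.11, adjusted p = 0.15). HOXB8, next to it, stayed between 4.95 and 5.48 on every array, differed by -0.34 in Clone 3 (adjusted p = 0.098) and was not called in any comparison.

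These clone calls differ in how far they rest on single arrays. HOXB9 in both clones and HOXB6 in Clone 1 kept their calls under all 9 alternatives. HOXB5 in Clone 1 lost its call without PC3-ML replicate 1 (adjusted p = 0.062), and HOXB7 in Clone 1 without PC3-ML replicate 1 or either Clone 1 array (adjusted p up to 0.083). HOXB5 and HOXB6 in Clone 3 lost it without PC3-ML replicate 1 or either Clone 3 array (adjusted p up to 0.12).

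A comparison of the clones with PC3-N was added after the HOXB9 levels had been seen. Clone 1 had lower HOXB5 (-0.48, adjusted p = 0.019), HOXB6 (-0.86, adjusted p = 0.0051), HOXB9 (-0.56, adjusted p = 0.0084) and HOXB13 (-0.99, adjusted p = 0.031) than PC3-N, 4 of 27 members, against 5.11% of all genes called lower and 13.1% in either direction. HOXB5 lost its call without PC3-N replicate 2 or Clone 1 replicate 1, HOXB9 without PC3-N replicate 2 or Clone 1 replicate 2, and HOXB13 without PC3-N replicate 1 or Clone 1 replicate 1, with adjusted p of up to 0.14, 0.068 and 0.2 for these genes in turn. Clone 3 had lower HOXB5 than PC3-N (-0.46, adjusted p = 0.038), 1 of 27, against 2.69% of all genes called lower and 6.86% in either direction. That call was lost on leaving out any of the 4 arrays (adjusted p up to 0.2). HOXB9 differed by -0.18 in Clone 3 against PC3-N (SE 0.11, adjusted p = 0.45).

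**Figure D3:**
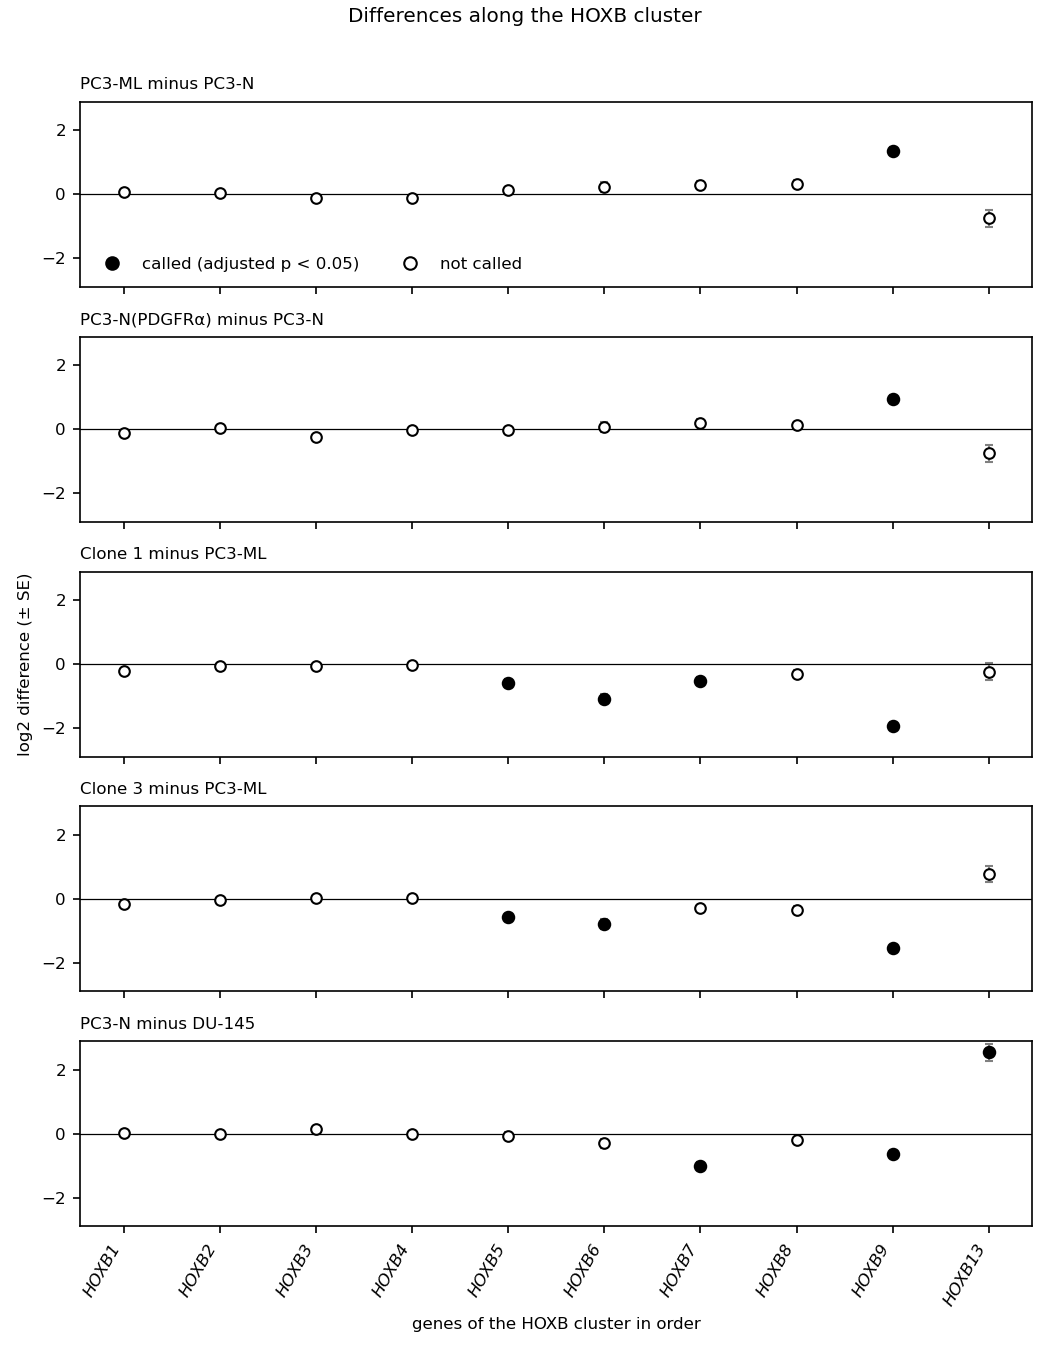
Log2 difference with its SE (vertical axis) for the HOXB genes in number order, with a panel for each of 5 comparisons and filled points for differences called at an adjusted p below 0.05. Filled points sit at HOXB9 in all 5 panels and at HOXB5 and HOXB6 in both clones against PC3-ML. They also sit at HOXB7 in Clone 1 against PC3-ML, and at HOXB7 and HOXB13 (2.55) in PC3-N against DU-145.

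HOXB13 had the widest span of the members and divided the lines by origin. Its arrays read 7.76 and 7.56 in Clone 3, 6.42 and 6.87 in Clone 1, 6.98 and 6.77 in PC3-N(PDGFRα), 6.68 and 7.08 in PC3-ML and 8.02 and 7.24 in PC3-N. They read 4.92 and 5.00 in DU-145 (PDGFRα) and 4.86 and 5.32 in DU-145, near the array medians, so that no PC3 array overlapped with a DU-145 array. HOXB13 was higher in PC3-N than in DU-145 by 2.55 (SE 0.26, adjusted p = 7.4e-05), 5.84-fold. It was higher in the 5 PC3 lines than in the 2 DU-145 lines by 2.11 (SE 0.31, adjusted p = 0.0065), 4.33-fold, a call lost without DU-145 (PDGFRα) (adjusted p = 0.064). With the DU-145 lines near the floor, these folds may be low estimates, which was not tested.

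HOXB13 also varied among PC3 lines. It was lower in Clone 1 than in Clone 3 (-1.02, SE 0.26, adjusted p = 0.033), the only member called between the clones (1 of 27, against 10.5% of all genes). That call was lost on leaving out any of the 4 clone arrays, with adjusted p up to 0.22. Clone 3 differed from PC3-ML by 0.78 (SE 0.26, adjusted p = 0.11), and limma called HOXB13 higher in Clone 3 with the filter on dim genes (adjusted p = 0.027) and with an intensity trend (adjusted p = 0.045). In the order Clone 3, PC3-N, PC3-ML, PC3-N(PDGFRα), Clone 1, DU-145 and DU-145 (PDGFRα), only the step of Clone 1 over DU-145 passed the test (1.55, SE 0.26, adjusted p = 0.0013).

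PRAC1, known for expression in prostate, rectum and distal colon, is no member, and its promoter is printed above. It read 8.09 and 7.94 in Clone 1, 7.92 and 7.69 in PC3-N(PDGFRα), 7.48 and 7.56 in Clone 3, 7.30 and 7.70 in PC3-ML and 7.97 and 7.47 in PC3-N. It read 4.60 and 4.99 in DU-145 (PDGFRα) and 4.51 and 5.00 in DU-145, so the origins did not overlap. PRAC1 was higher in PC3-N than in DU-145 by 2.96 (SE 0.22, adjusted p = 8.8e-06), and higher in the PC3 lines than in the DU-145 lines by 2.94 (SE 0.14, adjusted p = 1e-04). In Clone 1 against Clone 3, where HOXB13 was lower, PRAC1 read higher, at means of 8.01 against 7.52, and was not called.

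HOXB7 was lower in every PC3 line than in the DU-145 lines. The arrays of the PC3 lines read 5.12 to 5.67, with 5.54 and 5.55 in PC3-N(PDGFRα) and 5.37 and 5.33 in PC3-N. Those of DU-145 (PDGFRα) read 6.43 and 6.79 and those of DU-145 read 6.30 and 6.40, without overlap. PC3-N differed from DU-145 by -1.0 (SE 0.11, adjusted p = 0.00015), and the PC3 lines from the DU-145 lines by -1.07 (SE 0.15, adjusted p = 0.0049), a call lost without DU-145 (PDGFRα) (adjusted p = 0.053).

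Across PC3-N against DU-145, 6 of 27 members were called, where 23.5% of all genes were called. HOXB13 was the 1 higher, against 13.5% of all genes, and HOXB7, HOXB9, HOXC9, HOXC10 and HOXD1 were the 5 lower, against 9.91%. HOXB9 was lower in PC3-N than in DU-145 (-0.63, SE 0.11, adjusted p = 0.0022). Over the 5 PC3 lines against the 2 DU-145 lines, 6 of 27 members were called, where 17.6% of all genes were. HOXB13 was the 1 higher, against 9.6% of all genes, and HOXB7, HOXC8, HOXC9, HOXC10 and HOXD9 were the 5 lower, against 8.02%. HOXB9 differed by -0.19 by origin (SE 0.54, 95% interval -1.48 to 1.1, adjusted p = 0.85), with PC3-ML above both DU-145 lines and both clones below them. That test rests on 2 DU-145 lines of shared origin, and without DU-145 (PDGFRα) only HOXC9 was called.

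In the HOXC cluster the called differences by origin lay in HOXC8, HOXC9 and HOXC10, which are consecutive. HOXC9, a thoracic-level gene in the embryo, read 4.37 to 4.63 on the PC3 arrays, against 4.92 and 5.31 in DU-145 (PDGFRα) and 5.57 and 5.37 in DU-145. HOXC9 was lower in PC3-N than in DU-145 (-1.04, SE 0.12, adjusted p = 0.00015) and lower in the PC3 lines than in the DU-145 lines (-0.81, SE 0.09, adjusted p = 0.0027). All PC3 arrays lay below all DU-145 arrays.

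HOXC10 read 4.60 to 5.05 on the PC3 arrays, against 5.25 and 5.63 in DU-145 (PDGFRα) and 5.44 and 5.37 in DU-145, again without overlap. It was lower in PC3-N than in DU-145 (-0.74, SE 0.11, adjusted p = 0.00063) and lower in the PC3 lines (-0.64, SE 0.10, adjusted p = 0.0073), and that second call was lost without either DU-145 line (adjusted p up to 0.068). HOXC8 was lower in the PC3 lines (-0.28, SE 0.07, adjusted p = 0.043), with overlapping arrays at 4.83 to 5.31 against 5.15 to 5.30, and 7 of 12 alternatives ended that call. All 3 genes stayed under 6 in every line.

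**Figure D4:**
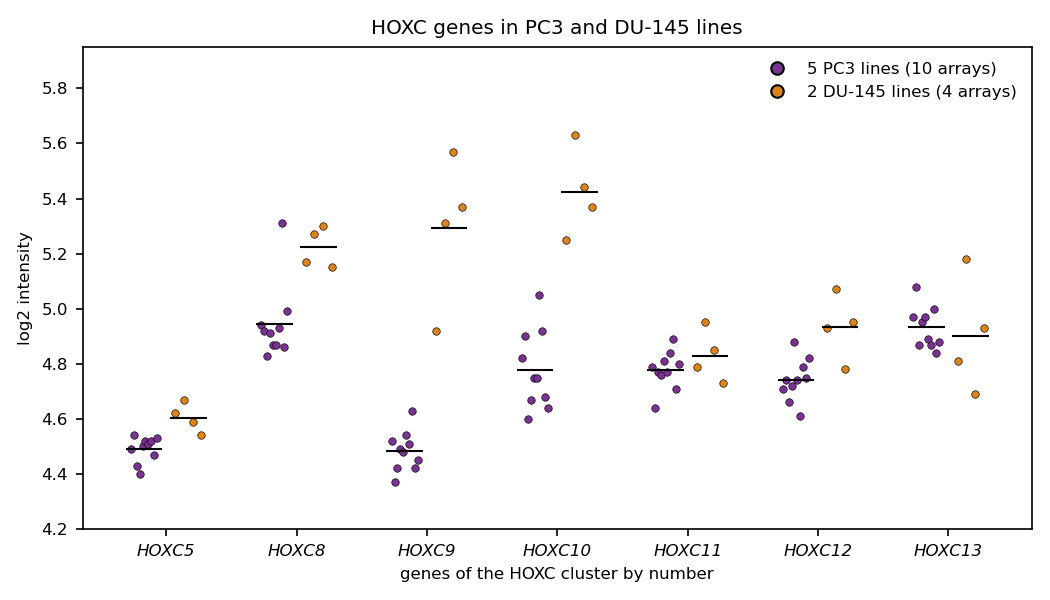
Log2 intensity (vertical axis) of the 7 HOXC genes on the 10 arrays of the PC3 lines (left of each pair) and the 4 arrays of the DU-145 lines, with bars at the means. The PC3 arrays of HOXC9 (4.37 to 4.63) and HOXC10 (4.60 to 5.05) lie below all DU-145 arrays, and those of HOXC8 overlap.

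In the HOXD cluster 2 of 9 members were called in any comparison. HOXD9 was lower in the PC3 lines than in the DU-145 lines (-0.24, SE 0.05, adjusted p = 0.015), with overlapping arrays at 4.98 to 5.23 against 5.19 to 5.50. The call was lost without DU-145 (PDGFRα) or without replicate 1 of every line (adjusted p up to 0.18). HOXD1 read 5.40 and 5.31 in PC3-N against 5.58 and 5.63 in DU-145 (-0.25, SE 0.08, adjusted p = 0.046), a call that 7 of 9 alternatives ended. The other HOXD members had line means of 4.45 to 5.59 and spans of at most 0.43. HOXA2 had line means of 5 to 5.58. HOXA2, the HOXB members HOXB1, HOXB2, HOXB3, HOXB4 and HOXB8 (spans of at most 0.36) and 4 HOXC members (spans of at most 0.31) were not called in any comparison. In all, 10 members were called in at least 1 comparison and 17 in none. The share of all genes called in at least 1 comparison was not computed, so this count and that of the HOXD cluster have no such background. PC3-N against DU-145 alone called 23.5% of all genes.

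By bone label, 0 members were called. Over the 4 bone-metastatic lines against the 3 others, tested on line means with limma, 0% of all genes passed and 12.2% had an unadjusted p under 0.05, as had 2 members (HOXB4 and HOXC12). HOXB9 averaged 6.04 in the bone-metastatic lines against 5.98 in the others, a difference of 0.06 (SE 0.50, 95% interval -1.16 to 1.27, adjusted p = 0.97). HOXB13 averaged 7.01 against 5.89 (1.12, SE 0.69, adjusted p = 0.49), and HOXB7 averaged 5.42 against 6.10 (-0.68, SE 0.31, adjusted p = 0.42). All 4 bone-metastatic lines are of PC3 origin and 2 of the 3 others are DU-145 lines, so label and origin cannot be told apart except through PC3-N. Without PC3-N, HOXB7, HOXB13, HOXC9, HOXC10 and HOXD9 were called (5 of 27 members), where 2520 of the 18372 genes were called. The split by label is then the same as the split by origin, so the 2 cannot be told apart there. The lines are not independent, since the clones and the PDGFRα lines descend from others of the set.

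Of the other genes inside the clusters, 7 of 26 were measured. HOXB-AS3, whose promoter is printed above, was lower in Clone 1 than in PC3-ML (-0.53, SE 0.12, adjusted p = 0.014), at 5.37 and 5.22 against 5.70 and 5.97. Its span overlaps HOXB5 and HOXB6 in RefSeq, and whether the probe sets tell them apart was not tested. HOXA-AS2 was lower in the PC3 lines than in the DU-145 lines (-0.19, SE 0.03, adjusted p = 0.014), at means of 4.51 against 4.70. These lie near the floor, with overlapping arrays at 4.45 to 4.58 against 4.52 to 4.89. The precursor gene MIR196A1, between HOXB9 and PRAC1, had line means of 4.99 to 5.33, and MIR196A2, between HOXC9 and HOXC10, of 4.39 to 4.49, and neither was called. Their mature product, known to pair with HOXB8 mRNA, is shown with its seed (bases 2 to 8) in capitals, because both genes lie next to members that differed and give the same sequence.
hsa-miR-196a-5p from MIR196A1 (chr17:48632532-48632553, minus strand): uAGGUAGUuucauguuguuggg
hsa-miR-196a-5p from MIR196A2 (chr12:53991762-53991783, plus strand): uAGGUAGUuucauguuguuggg
The arrays report the precursor genes and not the mature miRNA.

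Among the TALE partners of HOX proteins, 7 of 9 were measured. PBX3 was lower in PC3-N than in DU-145 (-0.99, SE 0.14, adjusted p = 0.00067), at 5.83 and 6.03 against 6.93 and 6.91, and lower in the PC3 lines than in the DU-145 lines (-0.99, SE 0.05, adjusted p = 0.00014). PKNOX1 was higher in the PC3 lines by 0.30 (SE 0.07, adjusted p = 0.035). In both clones against PC3-ML, 0 of 7 TALE genes were called. Of all genes, 13.8% were called in Clone 1 and 8.1% in Clone 3.

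Of the 12 genes flanking the clusters, Clone 1 against PC3-ML had 3 higher (CALCOCO1, CBX5 and LNPK) and 1 lower (SKAP1), where 13.8% of all genes were called. SKAP1, which adjoins HOXB1, differed by -0.19 (SE 0.05, adjusted p = 0.023) at means of 4.40 against 4.59, near the floor. CBX5, a heterochromatin protein gene beside the HOXC cluster, was higher in Clone 1 by 0.58 (SE 0.12, adjusted p = 0.012) and lower in Clone 3 (-0.46, SE 0.12, adjusted p = 0.049), both against PC3-ML. MTX2, beside the HOXD cluster, was lower in Clone 3 (-0.45, SE 0.11, adjusted p = 0.036). SKAP2, beside the HOXA cluster, was lower in PC3-N than in DU-145 (-0.86, SE 0.09, adjusted p = 7.3e-05).

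Of 19 Polycomb genes 15 were measured, and against PC3-ML 3 were higher and 1 lower in Clone 1, and 2 higher and 0 lower in Clone 3, where 13.8% of all genes were called in Clone 1 and 8.1% in Clone 3. SUZ12, a core subunit of a Polycomb repressive complex, read 8.46 and 8.29 in Clone 1 against 8.87 and 8.96 in PC3-ML (-0.54, SE 0.07, adjusted p = 0.0011). RBBP4, a histone-binding subunit of that and other complexes, was higher in Clone 1 by 0.67 (SE 0.09, adjusted p = 0.00097) and in Clone 3 by 0.42 (SE 0.09, adjusted p = 0.017). RBBP7, its close relative, was higher by 0.34 in Clone 1 (adjusted p = 0.018) and by 0.41 in Clone 3 (adjusted p = 0.012). In PC3-N against DU-145, 2 were higher and 5 lower, where 23.5% of all genes were called. EED, another core subunit, was lower in PC3-N by the most (-0.93, SE 0.13, adjusted p = 0.00059).

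All 11 trithorax and MLL genes were measured. Against PC3-ML, RBBP5 was higher in Clone 1 by 0.74 (SE 0.15, adjusted p = 0.0096) and MEN1 in Clone 3 by 0.31 (SE 0.07, adjusted p = 0.027). Each was 1 of 11, where 13.8% of all genes were called in Clone 1 and 8.1% in Clone 3. PSIP1, which tethers MLL complexes to chromatin, was lower in PC3-N than in DU-145 (-0.98, SE 0.11, adjusted p = 0.00014), and KDM6A, an H3K27 demethylase gene, was higher by 0.82 (SE 0.16, adjusted p = 0.0047).

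Of 17 retinoic acid and CDX genes 15 were measured. ALDH1A3, which makes retinoic acid, read 8.57 and 8.41 in PC3-N against 6.12 and 6.17 in DU-145, a difference of 2.34 (SE 0.10, adjusted p = 3.2e-07). It was higher in the PC3 lines than in the DU-145 lines by 2.62 (SE 0.16, adjusted p = 0.00022). RXRB, a retinoid receptor gene, was higher in PC3-N than in DU-145 by 0.82 (SE 0.12, adjusted p = 0.00069). CRABP2, a retinoic acid carrier, was higher in Clone 1 than in PC3-ML by 0.47 (SE 0.13, adjusted p = 0.037). It was 1 of 15, against 13.8% of all genes, and 0 of 15 were called in Clone 3, against 8.1%. None of the genes of these lists was called in DU-145 (PDGFRα) against DU-145 (0.31% of all genes) or by bone label (0%). Nor was any called in PC3-ML (0.348% of all genes) or PC3-N(PDGFRα) (2.2%) against PC3-N, where HOXB9 was called. The part of these genes in the HOX levels was not tested.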

How the data were processed

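Biotin-labelled RNA of 7 lines was read on 14 single-colour arrays. The authors deposited intensity values after RMA, per the submitters' processing notes, which corrects background, equalises arrays and summarises each probe set; its version is not given in the sources used here. From the deposited intensities, which are linear, log2 values were taken with no pseudocount. Of 28829 probe sets, 19291 had 1 gene symbol, 1735 several and 7803 no listed gene. The probe set with the highest mean stood for each of the 682 genes with several, which left 18372 genes and no filter on dim genes. GRCh38.p14 RefSeq identifiers matched 19260 probe sets.

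Pairs of lines were compared with limma version 3.58.1 under R 4.3.3, using lmFit and eBayes, with a mean per line over all 14 arrays and 7 residual degrees of freedom. The bone label and origin were tested on the 7 line means. A gene was called at a two-sided Benjamini-Hochberg adjusted p under 0.05 over all 18372 genes. Line-mean tests treat related lines as independent. The code was tested on simulated data. Promoters and figures used Python 3.11.15 with pandas 2.3.3 and matplotlib 3.10.9. The number of arrays limits the precision.

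Same-numbered arrays of different lines deviated together above a correlation of 0.1 in 5 of 21 pairs of lines (range -0.2 to 0.24). The numbers thus marked no pairing common to all lines. Some lines deviated together and others in opposite directions, at 0.216 for PC3-ML with Clone 1 and -0.199 for PC3-ML with PC3-N. A batch shared by lines under different numbers was not tested, and the replicate block follows the numbers. Members with a call were named with their values, the others by count and range, and of each further list the called genes with the widest spans, at most 6. Correlations between genes over lines are not given, because the lines fall into 2 origins with at most 5 lines each. The members and lists were chosen with earlier results of these data known. Alternatives were quantile normalization, a filter removing the dimmer 50% of genes, the mean of all probe sets of a gene, eBayes with an intensity trend, a replicate block and leaving out each array or line.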

Additional observations from a re-analysis of the deposited data

Results flagged for a closer look

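Among groups of 4 or 5 line means, 54 were examined for a line far from the rest, and 3 had one; chance marks about 1 in 20 such groups, and the groups overlap. HOXC5 averaged 4.42 in Clone 3, below the other bone-metastatic lines at 4.51 to 4.52 and below the other PC3 lines at 4.5 to 4.52, all near the array floor. HOXC8 averaged 5.12 in PC3-N(PDGFRα), above the other PC3 lines at 4.87 to 4.93, with arrays at 4.93 and 5.31, so replicate 2 sets that mean. The difference in HOXB9 between a PDGFRα line and its parent was 0.95 in PC3-N and -0.26 in DU-145. These values differed by 1.21 in the limma interaction test.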

How the results depend on the processing

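Of 589 values of single HOX genes under an alternative, 534 kept their side of the threshold, 48 lost the call and 7 gained it. Among values called in the main or the alternative fit, 0 changed direction. Changes of direction without a call were not counted. HOXB6 in PC3-N(PDGFRα) against PC3-N, for example, went from 0.06 to -0.06 without PC3-N replicate 1. Under the filter on dim genes, 10 members remained for testing. The members called then numbered 4 for Clone 3 against PC3-ML (3 without the filter; HOXB13 was gained, as with the intensity trend), 2 for Clone 1 against Clone 3 (1), 3 for PC3-N against DU-145 (6), 2 for PC3 against DU-145 lines (6) and 2 for Clone 3 against PC3-N (1), the last also 2 with the intensity trend and 0 with quantile normalization. Over all genes, PC3-ML against PC3-N had 103 calls with the filter (51 higher, 52 lower), against 64 without it (40 higher, 24 lower). DU-145 (PDGFRα) against DU-145 had 91 with the intensity trend against 57, and its 12 higher and 45 lower calls became 23 and 51 with quantile normalization and 7 and 71 with the filter. The 1764 higher and 1473 lower calls of PC3 against DU-145 lines became 1921 and 971 with the filter.

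The numbers marked no pairing common to all lines. The replicate block gave 42 calls over all genes for PC3-ML against PC3-N and 10 for DU-145 (PDGFRα) against DU-145. With the block HOXD1 was no longer called in PC3-N against DU-145 (5 members), nor HOXB5 in Clone 3 against PC3-N (0 members). No block could be fitted to the comparisons of line means.

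Leaving out 1 array, members called ranged from 0 to 1 for the PDGFRα effect in PC3-N against that in DU-145, 2 to 4 for Clone 1 against PC3-ML, 1 to 3 for Clone 3 against PC3-ML, 0 to 0 for Clone 1 against Clone 3, 2 to 3 for Clone 1 against PC3-N and 0 to 0 for Clone 3 against PC3-N. Leaving out 1 line or 1 replicate number, they ranged from 0 to 5 by bone label and 1 to 7 for PC3 against DU-145 lines. Over all genes the counts ranged from 12 (without PC3-N replicate 1) to 170 (without PC3-N replicate 2) for PC3-ML against PC3-N, 71 to 404 for PC3-N(PDGFRα) against PC3-N, 15 to 418 for DU-145 (PDGFRα) against DU-145, 26 to 249 for the difference between these effects, 1213 to 1981 for Clone 1 and 431 to 1232 for Clone 3 against PC3-ML, 1018 to 1123 for Clone 1 against Clone 3, 1325 to 1703 for Clone 1 and 604 to 843 for Clone 3 against PC3-N, 0 to 2520 by bone label (2520 without PC3-N) and 1180 (without DU-145 (PDGFRα)) to 3392 for PC3 against DU-145 lines. Leaving out an array leaves a line with 1 array, assumed to vary like the other lines. The other causes were not tested. Signal near the array floor limits every member outside HOXB6, HOXB7, HOXB9 and HOXB13.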
